A study of Mus musculus with 2 samples.

Results

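The Notch genes of the mouse cervix were followed across 3 epithelial layers and 2 hormone states. They were chosen by symbol in the deposited gene lists, and 8 of the 31053 listed genes make up the set: the ligands Jag1, Jag2 and Dll1, the receptors Notch1, Notch2 and Notch3, and the target genes Hes1 and Hey1. Single cells of the cervix of C57BL6/129 females, ovariectomised at 7 to 8 weeks of age, were profiled in 2 libraries, each made from 9 pooled mice. Treatment began 2 weeks after surgery, and the experiment ran for 15 days. The control library comes from ovariectomised mice that were left untreated. The progesterone library comes from ovariectomised mice given E2 under the skin at 100 µg/d for 2 days, to switch on the progesterone receptor, and then a 25 mg pellet releasing about 1 mg per day over 21 days. The progesterone group therefore differs from the control by both E2 and progesterone, and no library of E2 alone or of vehicle was analysed here. With 1 pooled library per state no test between states is possible. Intervals given below are 95% and cover counting error only.

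Notch signalling passes between touching cells. A Jagged or Delta ligand on the sending cell binds a Notch receptor on its neighbour, proteases then release the receptor's inner part, and this part joins the DNA-binding protein RBPJ to switch on genes such as Hes1 and Hey1. In stratified squamous epithelium, which covers the lower cervix, Notch activity is known for its part in the step from dividing basal cells to differentiating suprabasal cells, and in glandular and airway epithelium for its part in choosing secretory fates. Hes1 and Hey1 are transcriptional repressors of the basic helix-loop-helix class and serve as common readouts of the pathway.

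The 2 ligand genes that stood highest in the basal layer, Jag2 and Dll1, are shown by the bases around their transcription starts. So is the receptor gene Notch3, which like Notch2 stood lowest in that layer. Each RefSeq window on GRCm38.p6 runs from 250 bases before to 50 bases after a start, is read 5′ to 3′ along the gene and lies on the minus strand. Capitals mark matches, on either strand, to 3 of the 4 motifs searched: the GC box GGGCGG, the AP-1 site TGANTCA and the steroid receptor motif AGAACA. The fourth, the RBPJ core TGGGAA, had no match in these windows. Dll1 has 2 listed starts and both windows are given.

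Jag2, chr12:112929446-112929745: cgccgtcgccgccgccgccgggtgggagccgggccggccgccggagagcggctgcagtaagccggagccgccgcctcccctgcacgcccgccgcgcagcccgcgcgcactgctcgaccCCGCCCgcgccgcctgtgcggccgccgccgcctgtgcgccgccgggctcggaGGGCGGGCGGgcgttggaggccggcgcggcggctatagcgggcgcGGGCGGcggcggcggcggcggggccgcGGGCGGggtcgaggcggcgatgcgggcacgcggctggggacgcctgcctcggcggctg

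Dll1, chr17:15375774-15376073: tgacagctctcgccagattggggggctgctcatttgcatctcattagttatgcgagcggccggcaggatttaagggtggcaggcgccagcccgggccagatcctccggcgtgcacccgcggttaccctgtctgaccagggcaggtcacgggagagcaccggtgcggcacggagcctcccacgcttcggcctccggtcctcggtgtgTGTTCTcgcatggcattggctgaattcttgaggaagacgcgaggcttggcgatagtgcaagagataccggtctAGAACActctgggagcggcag

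Dll1, chr17:15376883-15377182: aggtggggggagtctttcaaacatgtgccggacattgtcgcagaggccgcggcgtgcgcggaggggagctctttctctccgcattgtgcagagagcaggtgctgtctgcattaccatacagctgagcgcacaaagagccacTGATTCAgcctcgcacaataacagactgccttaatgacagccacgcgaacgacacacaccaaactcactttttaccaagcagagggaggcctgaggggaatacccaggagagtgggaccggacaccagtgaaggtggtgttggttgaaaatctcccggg

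Notch3, chr17:32166841-32167140: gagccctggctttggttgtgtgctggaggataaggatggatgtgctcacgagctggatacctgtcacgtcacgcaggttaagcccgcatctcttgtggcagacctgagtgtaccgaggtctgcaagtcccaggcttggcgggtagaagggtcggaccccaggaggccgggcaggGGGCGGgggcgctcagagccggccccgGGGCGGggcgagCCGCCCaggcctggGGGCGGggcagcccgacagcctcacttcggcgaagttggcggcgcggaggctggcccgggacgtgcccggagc

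The Jag2 window has a GC content of 86%, with 5 matches to the GC box, of which those starting at -80 and -76 from the gene start overlap. The Notch3 window has a GC content of 70% and 4 GC box matches. The Dll1 windows have a GC content of 62.7% and 56.3% and no GC box. The first holds 2 matches to the steroid receptor motif, at -44 and at 29 from the start, and the second holds 1 AP-1 match at -109. Of 32851 windows of the same length around all listed mouse starts, 35.7% hold GGGCGG, 19.0% hold AGAACA, 7.81% hold TGANTCA and 25.6% hold TGGGAA. Windows were listed for 6 of the 8 members. Hes1 and Hey1 had no entry, and no RBPJ core lies in the windows of Jag1, Notch1 or Notch2 either.

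The libraries held 5368 and 10853 barcodes with 21658684 and 44811069 unique molecule counts (UMIs) in the control and progesterone library. After filters 4579 and 8541 cells were left, with a median of 3733 and 4151 UMIs, and 12 of these barcodes occurred in both libraries. Layers were named from fixed markers of clusters built without any Notch pathway gene, and the names are used here in the sense of basal-like, suprabasal-like and mucous luminal-like. The basal layer held 1276 control and 3165 progesterone cells, the suprabasal layer 1198 and 1190, and the mucous luminal layer 233 and 1903. Unnamed clusters held 1177 and 1088 cells. Markers fitted the names in part. Krt10 stood at 459 and 551 UMIs per 1000000 (CPM) in suprabasal and at 46.3 and 34.2 CPM in basal cells, and Muc5b at 2619 and 7868 CPM in luminal cells. The 10 suprabasal markers together stood at 12153 and 7077 CPM in suprabasal against 3299.9 and 903 CPM in basal cells. The 10 basal markers together did not set the basal layer apart, at 38047 and 16901 CPM in suprabasal against 31977 and 13562 CPM in basal cells, and Krt5 with progesterone stood at 5248 against 2720 CPM. Krt13, a suprabasal keratin, stood higher in control luminal cells, at 5064 CPM, than in control suprabasal cells, at 1713 CPM.

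Cells of a layer did not fall into the same clusters in the 2 libraries, and this touches every comparison of states below. Of control basal cells 40.4% lay in cluster 4, led by Sprr2a3 and holding 0.885% of progesterone basal cells. Cluster 12, led by Apoe, Igfbp5 and Dlk2, took in 7.84% of the basal cells in control but 44.6% with progesterone. Clusters 11 and 13 were led by genes of dividing cells such as Top2a and Mki67. Control suprabasal cells lay in clusters 2 (35.0%) and 7 (56.0%), whereas 95.5% of progesterone suprabasal cells lay in cluster 0. Control luminal cells lay in cluster 3 (97.4%), and progesterone luminal cells mainly in clusters 18 (49.1%) and 23 (43.2%). Each comparison of states is therefore given for the whole layer and then within the 6 clusters of these layers that held at least 50 cells of each library.

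A member is said to be called higher or lower where the ratio of CPM was at least 1.5-fold and its counting interval left out 1, among genes with at least 20 UMIs over both sums. Each UMI marks 1 molecule by its 3′ end, so levels are not divided by gene length.

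**Figure D1:**
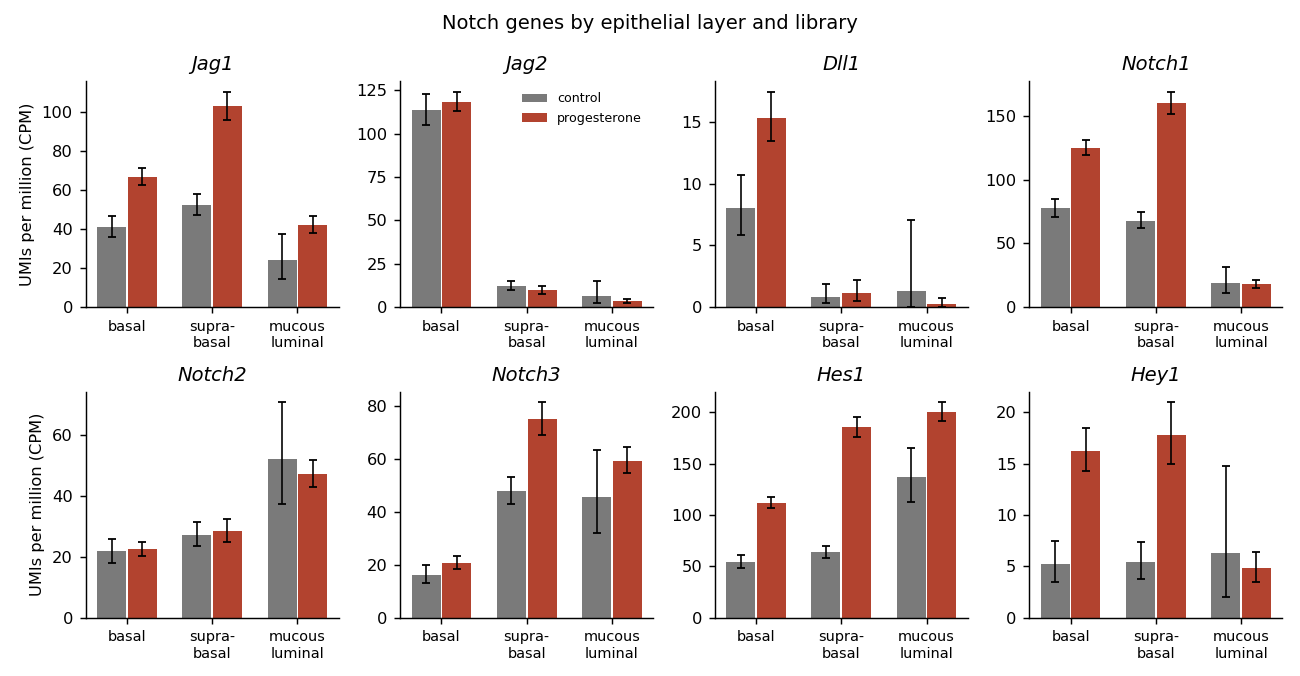
Level of each gene in UMIs per 1000000 (CPM) by layer, with control in grey and progesterone in red. Bars are sums over all cells of a layer in 1 library and lines are exact Poisson 95% intervals. Jag2 and Dll1 stood high in the basal layer only, Notch3 stood higher in the other layers, and Hes1 was higher with progesterone in each layer.

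Jag2 (ENSMUSG00000002799, chr12:112907819-112929776, GRCm38), a Jagged ligand, was a basal gene in both libraries. It stood at 114 CPM in control and 119 CPM in progesterone basal cells. In the suprabasal layer it stood at 12.3 and 9.58 CPM, and in the luminal layer at 6.35 and 3.42 CPM. The basal level was 9.21-fold the suprabasal level in control (interval 7.36 to 11.7) and 12.4-fold in progesterone cells (9.83 to 15.8). Over the luminal layer it was 17.9-fold (7.63 to 55.3) and 34.6-fold (24.4 to 50.8) higher. Neutrophil-like cells, which should lack the gene, held 18.4 CPM (5.01 to 47.1) and 15.1 CPM (5.53 to 32.8), from 4 and 6 UMIs at a median of 581 and 776 UMIs per cell. In CPM the suprabasal and luminal levels lie below these, but suprabasal cells were deeper, at medians of 5204 and 6324 UMIs. Before thinning, 1.17% and 1.35% of neutrophil-like cells had a Jag2 UMI. The same shares were 5.76% and 5.55% in suprabasal and 2.15% and 1.42% in luminal cells. The part of free RNA in these levels was not tested. The folds over those layers, and those along the bins given further on, may thus be lower limits. Of the other classes, blood endothelium-like cells held 86.5 and 87.8 CPM, from 6 and 12 UMIs. Between the states the basal level differed little, at a ratio of progesterone over control of 1.04 (0.953 to 1.14).

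Dll1 (ENSMUSG00000014773, chr17:15367354-15376872), a Delta ligand, had the fewest UMIs of the 8 genes over each whole library, 65 and 291, and like Jag2 stood highest in the basal layer. It had 46 UMIs in control and 233 in progesterone basal cells, at 8.01 and 15.4 CPM. In the suprabasal layer only 6 and 9 UMIs were found, and in the luminal layer 1 and 2. The basal level was 9.41-fold (4.01 to 27.0) and 13.5-fold (7.01 to 29.98) the suprabasal level. A gene on the opposite strand, A930024N18Rik, overlaps Dll1, and whether the counting used strand is not given in the sources used here.

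Jag1 (ENSMUSG00000027276, chr2:137081456-137116644), the second Jagged ligand, was spread over all 3 layers. Its control levels were 40.9 CPM in basal, 52.5 CPM in suprabasal and 24.1 CPM in luminal cells, the last from 19 UMIs. Its progesterone levels were 66.9, 103 and 42.3 CPM in the same order. The order of layers was thus the same in both libraries, with suprabasal over basal at 1.28-fold (1.09 to 1.52) in control and 1.54-fold (1.40 to 1.69) in progesterone cells. The luminal level was 1.70-fold (1.06 to 2.87) and 1.58-fold (1.41 to 1.78) below the basal one. Neutrophil-like cells held 9.20 and 12.6 CPM.

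The ligand mix therefore turned over between layers. In basal cells Jag2 made up 69.9% (66.9 to 72.8) of the 934 control and 59.0% (57.2 to 60.8) of the 3045 progesterone UMIs of the 3 ligands. In suprabasal cells Jag1 made up 79.9% (76.0 to 83.5) of 463 and 90.6% (88.5 to 92.4) of 903 UMIs. In luminal cells Jag1 made up 76.0% (54.9 to 90.6) of 25 and 92.1% (89.1 to 94.4) of 429. The total of the 3 ligands was highest in basal cells, at 163 and 201 CPM, followed by 65.7 and 114 CPM in suprabasal and 31.8 and 45.9 CPM in luminal cells.

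Notch1 (ENSMUSG00000026923, chr2:26457903-26516663), the most abundant of the receptors in squamous cells, stood at 77.8 and 125 CPM in control and progesterone basal cells. Its suprabasal levels were 68.1 and 160 CPM. Basal and suprabasal cells differed by less than 1.5-fold in each library, at 0.875 (0.767 to 0.997) and 1.28 (1.19 to 1.37). Luminal cells held far less, at 19.1 and 18.0 CPM, which was 4.09-fold (2.45 to 7.36) and 6.98-fold (5.96 to 8.22) below the basal level. Neutrophil-like cells held 78.2 and 138 CPM of Notch1, and their Notch2, at 216 and 146 CPM, was the highest among the named classes measured.

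Notch2 (ENSMUSG00000027878, chr3:98013527-98150361) was highest in the luminal layer, where Notch1 was lowest. It stood at 21.8 and 22.5 CPM in basal, 27.2 and 28.4 CPM in suprabasal and 52.1 and 47.1 CPM in luminal cells, in control and progesterone. The luminal level was 2.39-fold (1.64 to 3.43) and 2.09-fold (1.81 to 2.42) the basal level. Basal and suprabasal cells did not differ past 1.5-fold. Its levels in the 2 libraries lay close together, with ratios of progesterone over control of 1.03 (0.839 to 1.28), 1.04 (0.856 to 1.27) and 0.904 (0.655 to 1.28) in the 3 layers.

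Notch3 (ENSMUSG00000038146, chr17:32120820-32166852) was low in basal and higher in both other layers. It stood at 16.2 and 20.8 CPM in basal, 47.9 and 75.2 CPM in suprabasal and 45.7 and 59.5 CPM in luminal cells. Suprabasal cells held 2.96-fold (2.35 to 3.77) and 3.62-fold (3.15 to 4.16) the basal level. Within the basal layer it was uneven: cluster 12 held 4.53 CPM in control (1 UMI) and 3.66 CPM in progesterone cells (24 UMIs), against 23.5 and 35.8 CPM in cluster 5. Among the basal clusters with at least 50 progesterone cells, Jag2 and Dll1 stood highest in that same cluster 12, at 153 and 23.3 CPM. The opposite-strand gene Gm17276 overlaps Notch3, and 0610009E02Rik and Gm13568 overlap Notch1.

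The receptor mix shifted accordingly. Notch1 made up 67.2% (63.5 to 70.8) and 74.3% (72.6 to 76.0) of the receptor UMIs in control and progesterone basal cells, and 16.3% (9.42 to 25.5) and 14.4% (12.5 to 16.6) in luminal cells. Notch3 made up 14.0% and 12.3% in basal, 33.5% and 28.5% in suprabasal, and 39.1% and 47.8% in luminal cells.

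**Figure D2:**
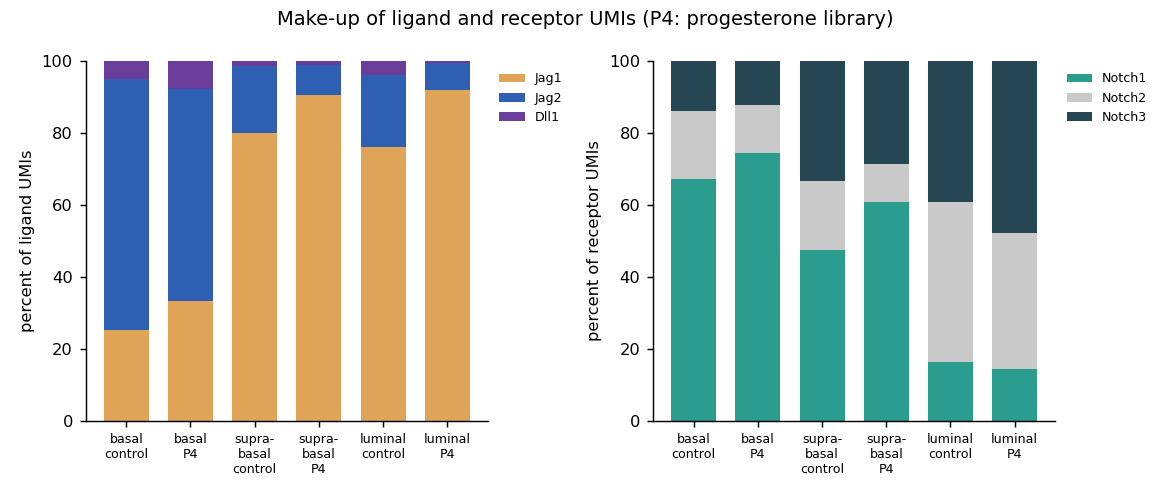
Share, in percent, of each gene in the UMIs of the 3 ligands (left) and the 3 receptors (right), by layer and library. Jag2 fills most of the basal bars and Jag1 most of the others, while the Notch1 part shrinks from basal to luminal cells. The control luminal bars rest on 25 ligand and 92 receptor UMIs.

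Hes1 (ENSMUSG00000022528, chr16:30064384-30067796) was the most abundant of the 8 genes in luminal cells and stood higher with progesterone in every layer. Control levels were 54.7 CPM in basal, 63.7 CPM in suprabasal and 137 CPM in luminal cells. Progesterone levels were 112, 186 and 200.2 CPM. In control the basal and suprabasal layers differed by 1.16-fold (1.01 to 1.35), whereas in progesterone cells the suprabasal level was 1.66-fold (1.55 to 1.78) the basal level. The luminal level was 2.51-fold (2.00 to 3.13) and 1.79-fold (1.67 to 1.91) the basal level. When cells were thinned to 2000 UMIs each, a Hes1 UMI was found in 9.83% (7.94 to 11.996) of basal cells in control and in 18.3% (16.9 to 19.7) with progesterone, against 19.1% and 34.2% before thinning. In suprabasal cells the thinned shares were 12.3% and 30.7%, and in luminal cells 19.7% and 31.3%. Erythrocyte-like cells, which should lack the gene, gave 9.38% (3 of 32, interval 1.98 to 25.0) and 8.77% (10 of 114, 4.29 to 15.5). The control basal share lies near theirs and the progesterone shares lie above. These erythrocyte-like cells also held the keratin Krt5 at 3013 and 1249 CPM, so they are no clean measure of background. They had medians of 5275.5 and 4851 UMIs, against 3862.5 and 4442 in basal cells. Neutrophil-like cells held 4.60 and 20.1 CPM of Hes1, below the basal 54.7 and 112 CPM.

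Hey1 (ENSMUSG00000040289, chr3:8663359-8667256), the other target gene, was low, with 98 and 576 UMIs over each whole library. It stood at 5.22 and 16.3 CPM in control and progesterone basal cells (30 and 247 UMIs) and at 5.39 and 17.8 CPM in suprabasal cells (38 and 141 UMIs). In luminal cells it stood at 6.35 and 4.81 CPM, from 5 and 45 UMIs. The control luminal value lay near the 3.81 CPM that 3 UMIs would give there. Its 3 control levels did not differ beyond their intervals, whereas in progesterone cells the luminal level was 3.38-fold (2.46 to 4.76) below the basal one. The 2 target genes thus had different layer orders with progesterone: Hes1 was highest and Hey1 lowest in luminal cells.

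Counted over the set, the layers differed as follows. In control 1 of 8 members was called higher and 2 lower in suprabasal than in basal cells, against 7.67% of 10955 genes higher and 21.3% lower. In progesterone cells 3 were higher and 2 lower, against 9.26% and 15.7% of 12033 genes. Between luminal and basal cells 3 were higher and 4 lower in control, against 22% and 17.5% of 10378 genes. With progesterone 3 were higher and 5 lower, against 29.5% and 18.6% of 12517 genes. The member called higher in suprabasal cells of both libraries was Notch3, and Jag2 and Dll1 were the members called lower there in both. Notch2, Notch3 and Hes1 were called higher, and Jag1, Jag2, Dll1 and Notch1 lower, in luminal cells of both libraries.

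Between the states, 5 of 8 members were called higher with progesterone in the basal layer and none lower, against 16.4% of 11914 genes higher and 15.4% lower. They were Hey1 at 3.12-fold (2.13 to 4.72), Hes1 at 2.05-fold (1.81 to 2.32), Dll1 at 1.92-fold (1.39 to 2.69), Jag1 at 1.64-fold (1.42 to 1.89) and Notch1 at 1.61-fold (1.45 to 1.79). The median log2 ratio of the 8 was 0.70, beside 0.02 over all genes tested. In the suprabasal layer 5 of the 7 members with enough UMIs were called higher and none lower, against 22.2% and 9.91% of 11083 genes. They were Hey1 at 3.30-fold (2.29 to 4.85), Hes1 at 2.91-fold (2.62 to 3.25), Notch1 at 2.35-fold (2.12 to 2.62), Jag1 at 1.97-fold (1.74 to 2.23) and Notch3 at 1.57-fold (1.37 to 1.797). Their layer's median over the 7 was 0.97, beside 0.19 over all genes tested. In the luminal layer 1 of 7 was called higher and none lower, against 11.9% and 10.1% of 11128 genes. It was Jag1 at 1.75-fold (1.11 to 2.94), while Hes1 reached 1.46-fold (1.202 to 1.79). The luminal median was -0.13, beside 0.07.

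**Figure D3:**
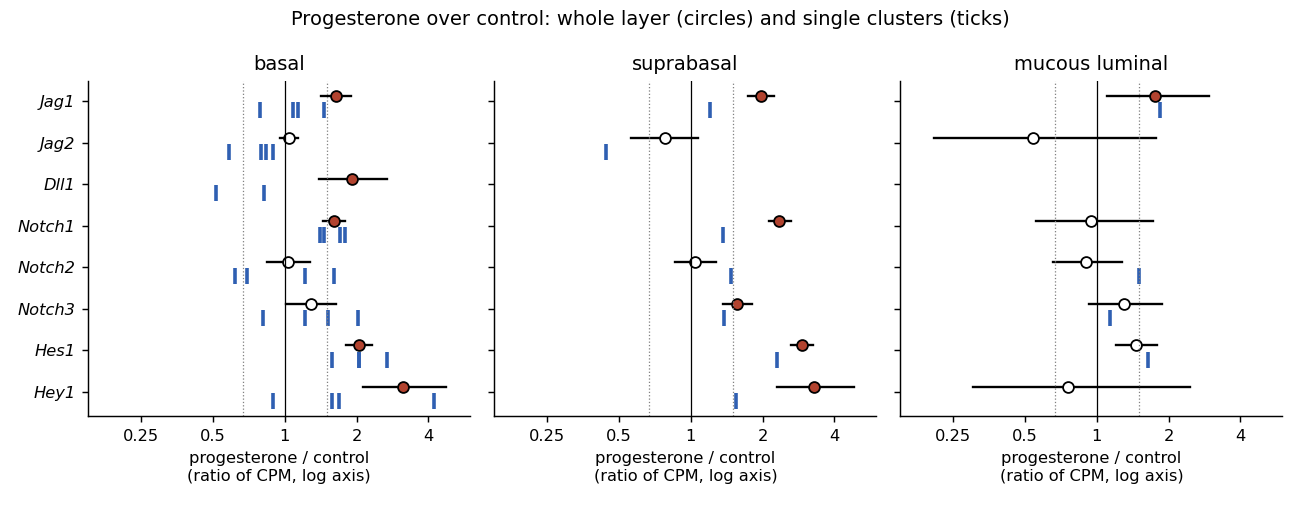
Ratio of progesterone to control CPM on a log axis, by layer. Circles are whole layers with 95% counting intervals, filled where called, and blue ticks are single clusters holding both libraries with at least 20 UMIs of the gene. Dotted lines mark 1.5-fold in each direction. The ticks of Hes1 all lie right of 1.5, whereas those of Jag1 and Dll1 in basal cells lie left of the circles.

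Within clusters Hes1 was the member called most often. It was called higher with progesterone in 6 of 6 clusters, at 78.3 against 124 CPM in basal cluster 5, 61.8 against 127 in cluster 11, 45.3 against 93.1 in cluster 12, 52.9 against 142 in cluster 13, 81.6 against 188 in suprabasal cluster 0 and 136 against 223 in luminal cluster 3. The ratios were 1.58 (1.19 to 2.15), 2.06 (1.61 to 2.63), 2.06 (1.11 to 4.31), 2.68 (1.32 to 6.32), 2.30 (1.64 to 3.34) and 1.64 (1.24 to 2.17). In the same clusters 3.35%, 13.1%, 1.82%, 4.01%, 5.05% and 9.33% of the genes tested were called higher. The control sums in clusters 12 and 13 rest on 10 and 8 UMIs.

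Jag1, Dll1, Notch2 and Hey1 were called in none of the 6 clusters. The control sums of Dll1 and Hey1 there were 10 UMIs or fewer. Jag1 ran from 0.786 to 1.83, the latter in luminal cluster 3 (0.946 to 3.58), although it was called in each whole layer. In suprabasal cluster 0 it stood at 84.0 against 101 CPM (1.201, 0.856 to 1.74). Notch1 was called in cluster 11 alone, at 67.5 against 121 CPM (1.79, 1.40 to 2.28), and Notch3 likewise, at 16.6 against 33.5 CPM (2.02, 1.24 to 3.31). In cluster 0, which held most of the progesterone suprabasal cells, Notch1 stood at 118 against 161 CPM (1.36, 1.03 to 1.86) and Notch3 at 55.2 against 75.8 CPM (1.37, 0.906 to 2.18). Hes1 was thus the member called in suprabasal cells when both libraries were read in the same cluster, compared with 5 members over the whole layer. The 108 control cells of that cluster limit what can be seen there.

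Jag2 had a ratio below 1 in all 6 clusters and was called lower in 1 of them, cluster 5, at 177 against 103 CPM (0.583, 0.477 to 0.719), where 10.4% of genes were called lower. Dll1 stood at 14.1 against 11.6 CPM in cluster 5 and at 45.3 against 23.3 CPM in cluster 12, with intervals that hold 1 (0.822, 0.410 to 1.87, and 0.515, 0.273 to 1.10). In cluster 13 it had 0 control and 5 progesterone UMIs. Over the whole basal layer the same gene was 1.92-fold higher with progesterone. Cluster 12, which had the highest Dll1 of the basal clusters with at least 50 cells in each library, made up 100 of 1276 basal cells in control and 1411 of 3165 with progesterone. Control cells of clusters 5, 12 and 13 were shallow, at medians of 1361, 1639 and 1447 UMIs against 4333, 4358 and 3904 in progesterone cells. Those of clusters 0 and 3 were also shallower, at 3524 against 6303 and 2616 against 4577 UMIs. In cluster 11 the medians were 8172 and 8485 UMIs, and the part of depth in these ratios was not tested.

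**Figure D4:**
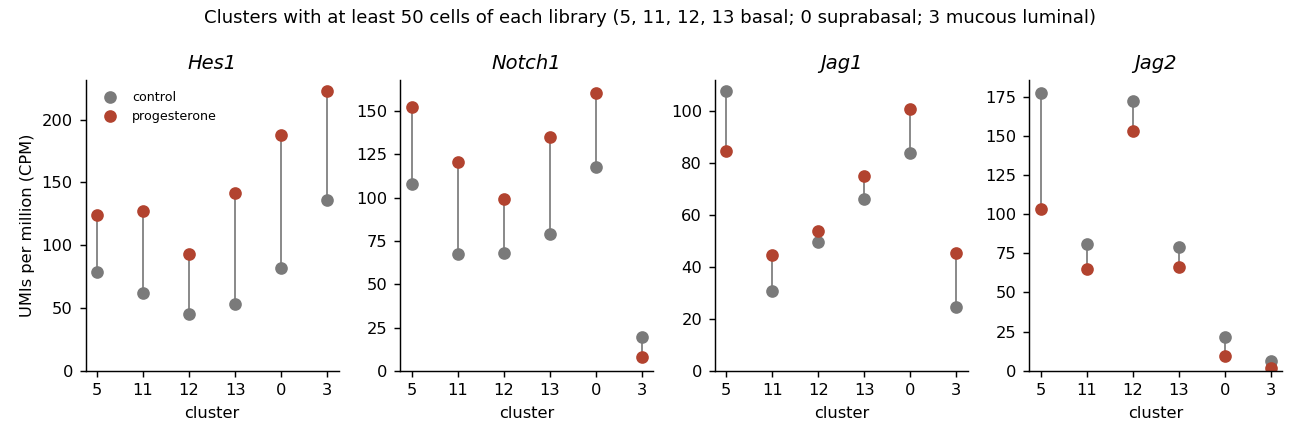
Level of 4 genes in UMIs per 1000000 (CPM) in the 6 clusters that held at least 50 cells of each library, control in grey and progesterone in red. Hes1 is higher with progesterone in each cluster, Notch1 in each but luminal cluster 3, and Jag2 is lower in each.

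Beside Hes1, the UMIs of 10 immediate early genes, which respond fast to handling of live cells, were summed. Their sum was not higher with progesterone in any of the 3 layers: it stood at 367 CPM in control and 344 CPM in progesterone basal cells, at 478 and 451 CPM in suprabasal and at 391 and 262 CPM in luminal cells. In cluster 11 it stood at 294 and 306 CPM and in cluster 0 at 437 and 439 CPM. An unnamed cluster of 43 cells had Arc, Dusp1 and Egr1 among its leading genes. In its 21 control and 22 progesterone cells the immediate early genes stood at 12267 and 8553 CPM, and Hes1 at 479 and 620 CPM. Neutrophil-like cells held 5495 and 4573 CPM of the immediate early genes, with Hes1 at 4.60 and 20.1 CPM. The part of handling in the Hes1 levels was not tested.

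A second reading ordered the cells within the named squamous clusters. Basal and suprabasal cells with at least 2000 UMIs were ordered by suprabasal over basal marker UMIs and divided into 5 bins of equal size over both libraries, which are ranges of a score and not cell types. From the first to the last bin Jag2 was 19.3-fold lower in control (interval 12.5 to 31.0) and 12.6-fold lower in progesterone cells (9.38 to 17.3). Notch3 was 3.66-fold (2.16 to 6.70) and 4.50-fold (3.51 to 5.84) higher. Jag1 was 1.44-fold (1.03 to 2.05) and 1.78-fold (1.54 to 2.07) higher.

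Hes1 changed little along the control order and steeply along the progesterone order. In control it stood at 60.8, 51.7, 48.4, 55.8 and 70.1 CPM from the first to the last bin, a ratio of the ends of 1.15 (0.879 to 1.53). In progesterone cells it stood at 99.0, 109, 121, 154 and 203 CPM, a ratio of 2.05 (1.84 to 2.29). Bin by bin the ratio of progesterone to control ran from 1.63 in the first to 2.90 in the last bin. Notch1 ran from 1.66 to 2.37 with no order, and Jag1 from 1.47 in the first bin to 2.58 in the third. Hey1 ran from 2.25 to 4.85, with only 3 control UMIs in the first bin. Ratios of Notch2 lay between 0.984 and 1.15. Hes1, Notch1 and Hey1 were called higher in all 5 bins, Jag1 in 4, Dll1 in 3, and Jag2 and Notch3 in 1 each. Dll1 stood above its control level in all 5 bins, from 1.98 to 3.48, on 2 to 12 control UMIs a bin, whereas its ratios in clusters 5 and 12 lay below 1. Jag2 lay between 0.894 and 1.37 in 4 bins and reached 1.98 (1.54 to 2.57) in the fourth, whereas its cluster ratios all lay below 1. The bins did not hold the same layer mix in the 2 libraries. Basal-layer cells made up 62.5% of control and 82.0% of progesterone cells in the third bin, and 29.9% and 53.8% in the fourth. The part of this mix in the bin ratios was not tested.

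**Figure D5:**
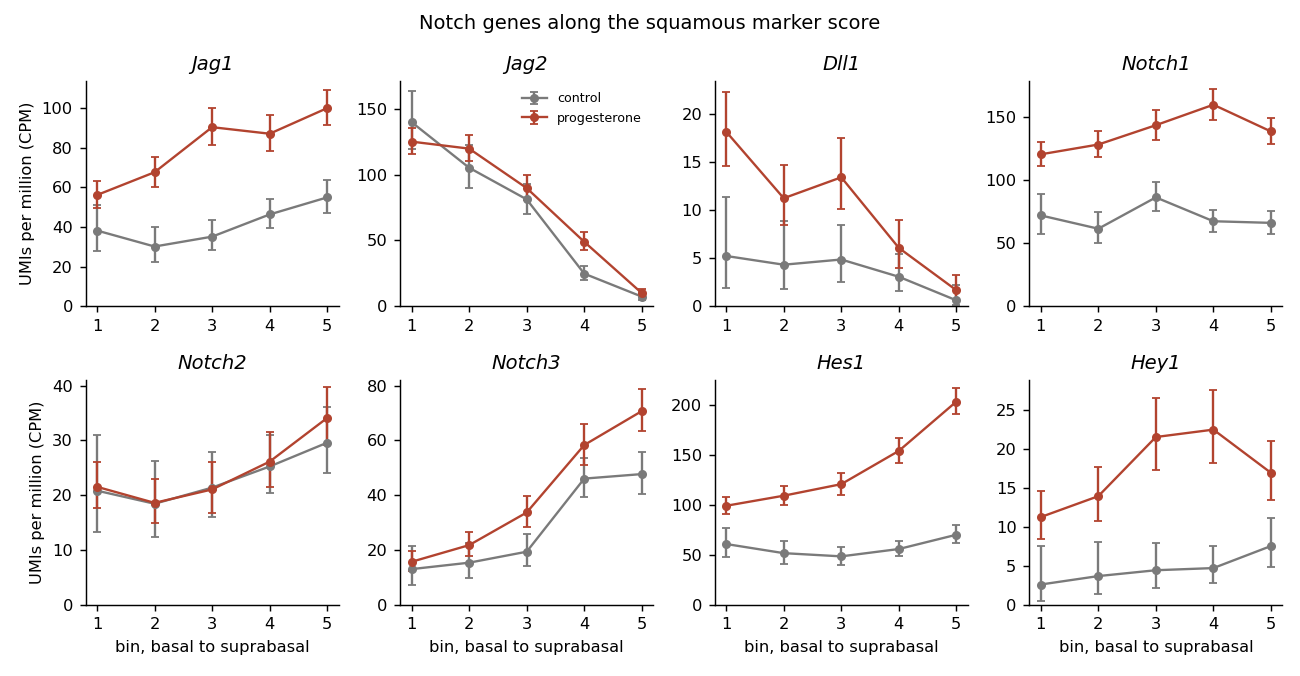
Level in UMIs per 1000000 (CPM) along 5 bins of a squamous marker score, from basal (1) to suprabasal (5), with exact Poisson 95% intervals. Control is grey and progesterone red. Jag2 falls and Notch3 climbs along the bins in both libraries, and Hes1 climbs along the progesterone line but stays between 48.4 and 70.1 CPM in control.

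Dividing basal cells, taken as those with at least 2 UMIs of 10 proliferation genes after thinning, held less of the basal ligands in the progesterone library. There Jag2 stood at 73.6 CPM in 325 dividing and 125 CPM in 2576 other cells (ratio 0.590, 0.502 to 0.689), and Dll1 at 6.62 and 16.6 CPM (0.400, 0.224 to 0.665). In control the ratios were 0.851 (0.718 to 1.01) for Jag2 and 0.511 (0.222 to 1.11) for Dll1. Notch3 was higher in dividing cells, at 1.71-fold (1.07 to 2.80) in control and 1.47-fold (1.11 to 1.93) in progesterone cells. By cluster, progesterone Notch3 stood at 33.5 and 24.1 CPM in clusters 11 and 13, led by genes of dividing cells. It stood at 35.8 CPM in cluster 5 and at 3.66 CPM in cluster 12. The part of cluster make-up in the Notch3 ratio was not tested. Hes1 did not differ beyond its interval, at 1.00 (0.786 to 1.28) and 1.07 (0.937 to 1.21).

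Of 47 other genes in fixed lists of the pathway, 34 had enough UMIs in basal cells, of which 7 were called higher and 4 lower with progesterone, beside 16.4% and 15.4% of all genes tested. In suprabasal cells 5 of 31 were higher and 3 lower, beside 22.2% and 9.91%, and in luminal cells 3 of 34 were higher and 2 lower, beside 11.9% and 10.1%. Their median log2 ratios were 0.25, 0.29 and 0.11, beside 0.02, 0.19 and 0.07 over all genes tested. When mitochondrial, ribosomal and the 20 most abundant genes were left out of the totals, the higher and lower counts became 10 and 2, 8 and 3, and 6 and 2. Over all genes tested the higher and lower shares with these trimmed totals were 25.6% and 9.45% in basal, 28.4% and 7.96% in suprabasal, and 15.9% and 7.65% in luminal cells. Dlk2, a Delta-like protein without the DSL domain of the classical ligands, stood at 23.9 CPM in control and 53.0 CPM in progesterone basal cells (2.22, 1.85 to 2.68). In the progesterone library Dlk2 was 19.1-fold (12.5 to 30.7) lower in suprabasal than in basal cells. Its suprabasal level was low in both libraries, at 1.28 CPM in control (9 UMIs) and 2.77 CPM with progesterone (22 UMIs). Numb, an inhibitor of Notch, was higher in basal (2.03, 1.44 to 2.92) and suprabasal cells (1.61, 1.18 to 2.22).

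Rfng, a sugar transferase acting on Notch, was lower with progesterone at 12.2 against 26.8 CPM in basal (0.455, 0.365 to 0.567) and 11.7 against 24.1 CPM in suprabasal cells (0.486, 0.374 to 0.630). Adam10, the protease that makes the first ligand-triggered cut, was called lower in suprabasal cells (0.591, 0.518 to 0.673). In basal cells its ratio was 0.621 (0.542 to 0.713), and with the trimmed totals it was 0.720 (0.629 to 0.826) and no longer called. Nrarp, a feedback target of Notch, stood higher in suprabasal than in basal cells, at 28.8 against 8.71 CPM in control and 23.0 against 7.39 CPM in progesterone cells. The cleavage list, of proteases and gamma-secretase subunits, had 8 of 9 genes called higher in luminal than in basal cells of the progesterone library, beside 29.5% of all genes. With the trimmed totals that count was 5, beside 20.2% higher and 29.7% lower over all genes. In control it was 3 of 8, beside 22%, and 2 with the trimmed totals, beside 16.6% higher and 25.0% lower. Psen2, a gamma-secretase subunit, stood at 49.5 against 5.75 CPM in control and at 25.0 against 10.5 CPM in progesterone luminal and basal cells.

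Across 30 sums of a cluster and library, Jag2 was most like Bcam (Pearson r 0.96), Itgb4 (0.91) and Agrn (0.91). Itgb4 encodes the integrin of the basal cell anchor to its base and is among the markers that named the basal layer. Dll1 was most like Tmem64 (0.90), Papln (0.90) and Tril (0.85). Notch3 was most like Zfp750 (0.88), Chchd10 (0.88) and Reep6 (0.85), and Hes1 like Trim2 (0.91), Papss1 (0.90) and Nrip1 (0.89). Jag1 was most like Pdcd2 (0.87), Hey1 like Nos1 (0.84), Notch2 like Tbc1d23 (0.82) and Notch1 like Fjx1 (0.75). Among the members the highest values were 0.78 for Jag2 with Dll1, 0.74 for Jag1 with Hey1 and 0.72 for Hes1 with Notch3. The points share 2 libraries and differ in depth, and these values describe levels only.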

How the data were processed

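Cervix cells of 2 groups were measured with the 10x Genomics 3′ kit v3.1, 1 library of 9 pooled mice per group, per the labels' protocols. The authors deposited raw UMI counts per gene and barcode, as whole numbers, made with Cell Ranger 3.0.2 on mm10, per the submitters' processing notes. Every barcode had at least 500 UMIs. Filtered matrices hold no empty droplets, so free RNA was not subtracted.

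From these counts, a barcode was kept if it showed 200 genes or more and no more than 20% of its UMIs were mitochondrial. The highest Scrublet scores (181 and 680 barcodes) were removed as doublets. Both libraries were clustered together with scanpy 1.11.5 (2000 variable genes, 30 components, 15 neighbours, Leiden resolution 1) without mitochondrial genes and the 55 genes of the Notch lists. Clusters were named where their marker score reached 0.75 with a lead of 0.5 and 3 detected markers. These thresholds, the members and the lists were chosen with earlier results of these data known. UMIs were summed per layer and library and scaled to CPM. Ratios have exact conditional binomial, levels exact Poisson and shares exact Clopper-Pearson intervals. The calls were tried on counts simulated with counting error only, which cannot show how they fare with variation between mice or libraries. Positions and overlaps came from GENCODE release 21, windows from RefSeq.

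All 8 members were named. Another pathway gene was named where called with at least 20 UMIs in both sums, up to 5 per comparison and direction. Like genes were the 3 with the highest Pearson r of log2(CPM + 10) over sums of at least 50 cells, among genes with 200 UMIs. Alternatives changed the cell filter, doublet removal, resolution, joint clustering, layer definition, total and cell weights. Reading only clusters filled by both libraries, the bin ratios and the immediate early genes were added after the data were seen.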

Additional observations from a re-analysis of the deposited data

How the results depend on the processing

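Over 8 alternative settings, between 28 and 34 of the 34 called ratios kept direction and call, and none changed sign. In clusters filled by both libraries, chosen after seeing the data, 24 did. Of Jag1, Dll1, Notch1, Hes1 and Hey1 in basal cells, Hes1 and Hey1 were called under all 8 settings. The number of members called higher with progesterone was, in basal cells, 3 with the strict cell filter and 2 with each cell weighted alike. With the strict filter 1 was called lower, Notch3, at a log2 ratio of -1.40. In the main reading Notch3 stood at 0.35 in basal cells and was not called. In suprabasal cells 1 was called higher in clusters filled by both libraries and 1 lower at resolution 2. In luminal cells 2 were called higher with the strict filter and with the trimmed total, 0 at resolution 0.5 and with each cell weighted alike, 3 with the libraries clustered apart and 4 with marker gates. For suprabasal over basal in control, 2 were higher with the libraries apart and 3 with marker gates and in clusters filled by both, and 4 were lower with the strict filter and 1 in clusters filled by both. For luminal over basal, 0 were higher in control with marker gates, 2 were lower in control at resolution 0.5, and 3 were lower with progesterone under the strict filter and in clusters filled by both. The cause was not tested. The trimmed total moved the median log2 ratio of all genes by 0.21 in basal, 0.12 in suprabasal and 0.12 in luminal cells between the states, and by -0.27 and -0.35 for luminal over basal in control and progesterone.

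No paired analysis was possible because each group has 1 library. The 787328 UMIs of control luminal cells, against 9348556 with progesterone, limit the luminal values.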
